A study of Caenorhabditis elegans with 48 samples.

Results

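The ttr genes of the nematode Caenorhabditis elegans encode proteins with a domain related to transthyretin. Every gene whose symbol starts with ttr- was taken, by matching symbols to the WBGene identifiers of the count tables. This gave 58 genes, all listed in the mRNA-seq table of 19454 genes, and 30 of them were also listed in the Ribo-seq table of 10741 genes. RefSeq's annotation of WBcel235 holds 59 ttr symbols, and its other entry, the pseudogene ttr-4, had no identifier to match. Along the chromosomes, 28 of the 58 genes stood next to another ttr gene, in 12 runs such as ttr-3, ttr-2 and ttr-1 on chromosome III or ttr-24, ttr-25 and ttr-26 on chromosome V.

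Transthyretin is the vertebrate blood protein that carries thyroid hormone and, with a partner, retinol. The worm family is large, and most of its members are small proteins predicted to be secreted. Few have a known role: TTR-52 bridges phosphatidylserine exposed on dying cells to the engulfment receptor CED-1, and TTR-33 is known for protecting dopamine neurons against oxidative damage.

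The series measured polyadenylated RNA and ribosome-protected footprints in 48 libraries, and asks in its title about inherited ribosomal RNA methylation and effects of stress across generations. In a first experiment Starved worms were compared with Fed worms (6 libraries per group and assay), and the labels do not say for how long or in which generation food was removed. In a second experiment RNAi, a method that lowers a transcript through double-stranded RNA of its sequence, was directed against E02H1.1 or against C27F2.4, and the control was Empty_vector (4 libraries per group and assay). E02H1.1 and C27F2.4 are known as genes for methyltransferases of the small-subunit ribosomal RNA. Strain and genotype are not given in the labels, and it is not stated whether replicates came from separate cultures. The spread behind each p-value is therefore that between these libraries, which may be technical.

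Library totals were 19.2 to 22.8 M counts in mRNA-seq and 3.91 to 11.7 M in Ribo-seq. E02H1.1 itself stood at 19.1 CPM (counts per M counts of the library) in E02H1.1 RNAi worms, against 67.6 CPM in Empty_vector worms, and C27F2.4 at 31.6 CPM in C27F2.4 RNAi worms, against 61.9 CPM in Empty_vector worms. The labels call all worms young adults. A list of 39 yolk, adult cuticle and sperm genes nevertheless summed to between 5.13 and 8.27 CPM per mRNA-seq library with 4 members at 0 in every group, and none of them was in the Ribo-seq table, whereas 8 embryonic sheath and cuticle genes summed to between 3826 and 5124 CPM. In a principal component analysis the libraries Starved 1 and Starved 5 (0.48 and 0.46 on the first component in mRNA-seq) lay beyond the other 4 Starved libraries (0.08 to 0.21), and Empty_vector C (-0.53) lay beyond the other 3 Empty_vector libraries (-0.33 to -0.25). C27F2.4 A (0.23) lay beyond C27F2.4 B, C and D (-0.08 to 0.08), and more so in Ribo-seq (0.35, against -0.06 to 0.07). Counts of mRNA and footprint calls among the ttr genes are also given without these libraries. The sums of CPM and the counts for marker and other gene lists are not.

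A single gene, ttr-50, held 53.2% to 66.2% of the mRNA reads and 60.4% to 71.2% of the footprint reads that fell on ttr genes. Its mRNA averaged 817 ± 55.3 CPM in Starved worms and 877 ± 35.4 CPM in Fed worms (SD, n = 6 each). The next by reads were ttr-2, ttr-6, ttr-53, ttr-48, ttr-41, ttr-17, ttr-35 and ttr-16, and the highest mRNA value of any of these was 68.2 CPM, for ttr-2 in Empty_vector D. CPM count reads and are not scaled to gene length, so they do not rank the genes by transcript number. At the other end, 14 members in the knockdown experiment and 18 in the Fed and Starved experiment had too few mRNA reads to be tested. Among them was ttr-11, at 0 to 0.295 CPM in the Starved libraries and 0.0943 to 0.573 CPM in the Fed libraries. Its levels in the knockdown experiment were 0.312, 0.257, 0.0507 and 0.224 CPM in the E02H1.1 libraries and 0, 0.153, 0.308 and 0.196 CPM in the C27F2.4 libraries, against 0.147, 0, 0.378 and 0.323 CPM in the Empty_vector libraries.

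Under E02H1.1 RNAi, ttr mRNAs moved in both directions, and the highest fold changes came from members with few reads. Of 44 members tested, 17 rose and 6 fell at an edgeR adjusted p under 0.05, the threshold used throughout. Over all 13637 genes tested 39.5% passed, 19.9% higher and 19.6% lower. The median log2 fold change of the members was 0.40, against -0.01 over all genes. Without Empty_vector C, 22 members passed. Of the 27 members under 10 CPM, 14 rose and 1 fell, while 21.1% of all genes at that level rose and 4.28% fell. Of the 17 members at 10 CPM or more, 3 rose and 5 fell, while 19.2% of all genes at that level rose and 28.9% fell. The count of low members that rose is partly set by the filter on low counts: 6 of the 14 (ttr-7, ttr-8, ttr-21, ttr-23, ttr-27 and ttr-32) did not reach its level of 0.49 CPM in all 4 Empty_vector libraries and would not have entered without the RNAi libraries. With no filter, 57 members had reads, of which 19 rose and 4 fell, and of the 40 under 10 CPM 16 rose and 0 fell. The shares of all genes in that fit are not given here, so these counts cannot be set against them.

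**Figure D1:**
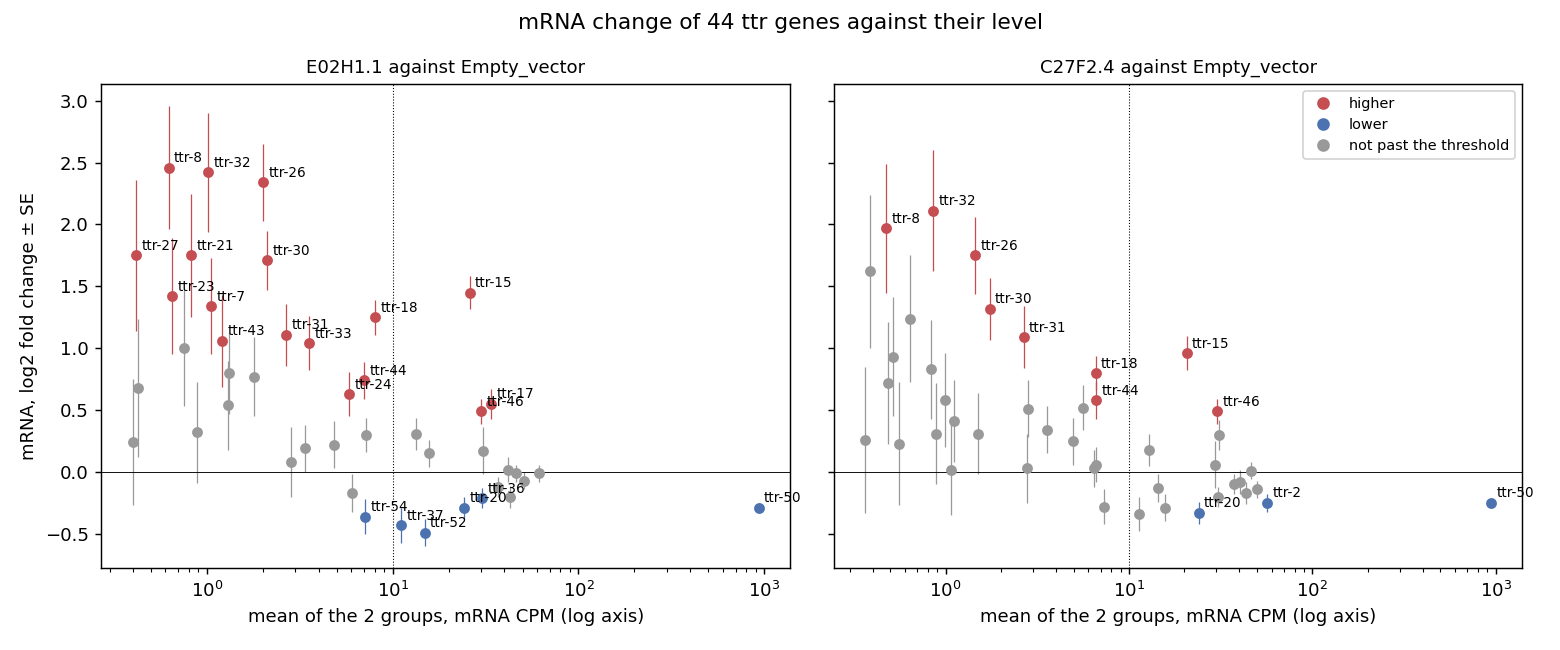
mRNA log2 fold change (± SE) of each of the 44 ttr genes tested, against the mean CPM of the 2 groups on a log axis, for E02H1.1 and for C27F2.4 against Empty_vector (4 libraries per group). Red points passed the threshold as higher and blue points as lower, and the dotted line marks 10 CPM. Most red points lie left of 10 CPM, and ttr-50, at the far right, is blue in both panels.

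The gene ttr-15 rose in both assays. Its mRNA stood at 49.3, 35, 31.2 and 36.9 CPM in the E02H1.1 libraries and at 14.7, 12.9, 12.5 and 15.5 CPM in the Empty_vector libraries. Every E02H1.1 library lay above every Empty_vector library, with a log2 fold change of 1.45 ± 0.13 (SE; edgeR adjusted p = 1.77e-07). Its footprints rose by as much, with 39.7, 37.5, 28.1 and 25.2 CPM in the E02H1.1 libraries, against 12.8, 11, 10.2 and 8.3 CPM in the Empty_vector libraries (log2 fold change 1.59 ± 0.15, edgeR adjusted p = 2.12e-07). The ratio of footprints to mRNA, called translational efficiency (TE), differed by 0.14 ± 0.23 on the log2 scale, which did not pass (edgeR adjusted p = 0.765). ttr-18 also rose in both assays, with a log2 fold change of 1.25 in mRNA and 0.86 in footprints. Its mRNA had 10.9, 12.7, 10.2 and 11.6 CPM in the E02H1.1 libraries, against 4.84, 5.62, 4.77 and 3.88 CPM in the Empty_vector libraries.

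The tandem neighbours ttr-8 and ttr-32 had the highest mRNA fold changes among the members tested, both from very few reads and both kept by the filter only through the RNAi libraries, so their rank is a description. ttr-8 had 1.56, 0.668, 1.27 and 0.76 CPM in the E02H1.1 libraries, against 0.0489, 0.274, 0.283 and 0.138 CPM in the Empty_vector libraries, a log2 fold change of 2.46 ± 0.50 (edgeR adjusted p = 0.000367). ttr-32 had 1.51, 2.52, 1.22 and 1.65 CPM in the E02H1.1 libraries, against 0, 0.411, 0.566 and 0.277 CPM in the Empty_vector libraries (2.42 ± 0.48, edgeR adjusted p = 0.000284). In WBcel235 the span of ttr-8 overlaps the ligand-gated channel gene lgc-12 and that of ttr-32 overlaps R13A5.7, and the sources used here do not say whether reads were assigned by strand, so reads of the overlapping genes cannot be told apart. No such overlap was annotated for ttr-26, the last of a run of 3 neighbours. It had 4.52, 3.34, 2.38 and 3.22 CPM in the E02H1.1 libraries, against 0.733, 0.548, 0.661 and 0.692 CPM in the Empty_vector libraries (2.34 ± 0.31, edgeR adjusted p = 1.51e-06). Its neighbour ttr-24 also rose, by 0.63 ± 0.18 (edgeR adjusted p = 0.00633). The next were ttr-21 and ttr-27 (both 1.75) and ttr-30 (1.71 ± 0.24), at 3.24 CPM in E02H1.1 worms and 0.986 CPM in Empty_vector worms. The call of ttr-27 was lost without Empty_vector A, Empty_vector B or E02H1.1 A (edgeR adjusted p = 0.0783, 0.0791 and 0.0922). ttr-33, the member named for neuron protection, had 4.52, 5.96, 4.16 and 4.52 CPM in the E02H1.1 libraries, against 1.81, 3.29, 1.51 and 2.63 CPM in the Empty_vector libraries (1.04 ± 0.22, edgeR adjusted p = 0.00058), and its span overlaps those of mig-6 and txt-5.

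Of the 6 members that fell, 5 were at 10 CPM or more. ttr-50 had 869, 839, 877 and 776 CPM in the E02H1.1 libraries, against 1022, 1022, 1044 and 1005 CPM in the Empty_vector libraries, a log2 fold change of -0.29 ± 0.04 (edgeR adjusted p = 1.53e-05). ttr-52, the phosphatidylserine bridge, had 11.2, 13.1, 13.5 and 11.7 CPM in the E02H1.1 libraries, against 16.9, 18.7, 15.8 and 17.9 CPM in the Empty_vector libraries (-0.49 ± 0.11, edgeR adjusted p = 0.000786). Neither gene's groups overlapped. The span of ttr-50 overlaps that of rbm-17, a gene for a splicing factor, and reads of the 2 genes cannot be told apart here. ttr-20 fell as well (-0.29 ± 0.09), while the calls of ttr-37 (-0.43), ttr-54 (-0.36) and ttr-36 (-0.21) were each lost when libraries were left out. For ttr-37 these were Empty_vector B and E02H1.1 D, at an edgeR adjusted p of 0.081 and 0.068. For ttr-54 they were Empty_vector A, B and C and E02H1.1 A, B and D (up to 0.149), and for ttr-36 they were Empty_vector B and D and every E02H1.1 library (up to 0.145).

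Footprints under E02H1.1 RNAi moved one way: of 30 members tested 17 rose and 0 fell, where 10.7% of all 10736 genes rose, 9.23% fell and 20.0% passed in either direction. The members' median was 0.30, against 0.00 over all genes. At an unadjusted p under 0.05 the count was 18 members in either direction, and DESeq2's Wald test also called 17 higher and 0 lower. Without Empty_vector C, 16 members passed, and without E02H1.1 B 12 did. Of the 17 members whose mRNA rose, 9 were in the Ribo-seq table, and all 9 also rose in footprints: ttr-15, ttr-17, ttr-18, ttr-24, ttr-30, ttr-31, ttr-33, ttr-44 and ttr-46. These were 9 of the 17 that rose in footprints. The other 8 (ttr-2, ttr-6, ttr-16, ttr-35, ttr-45, ttr-48, ttr-50 and ttr-51) had mRNA that did not pass as higher. Of these, ttr-16 had 297, 282, 254 and 247 CPM of footprints in the E02H1.1 libraries, against 196, 201, 171 and 203 CPM in the Empty_vector libraries, with no overlap (0.47 ± 0.07, edgeR adjusted p = 0.000131). ttr-50 went opposite ways in the 2 assays. Its footprints, at 2271, 2282, 2509 and 2270 CPM in the E02H1.1 libraries, lay above the 2059, 2055, 2123 and 2062 CPM of the Empty_vector libraries (0.15 ± 0.05, edgeR adjusted p = 0.032). That call was lost without Empty_vector A, B or D or E02H1.1 A, B or C, at an edgeR adjusted p of 0.0559 to 0.117. Footprint calls were also lost for ttr-24 (without Empty_vector A or C or E02H1.1 A, B or D, 0.0652 to 0.085), ttr-33 (without Empty_vector D or E02H1.1 B, 0.051 and 0.0637), ttr-35 (without E02H1.1 A or B, 0.0552 and 0.0761) and ttr-45 (without E02H1.1 B, 0.0534). Of the 17, ttr-30 and ttr-31 passed the filter only with the help of RNAi libraries. Footprints of ttr-52 changed by -0.11 ± 0.14 and did not pass (edgeR adjusted p = 0.613).

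**Figure D2:**
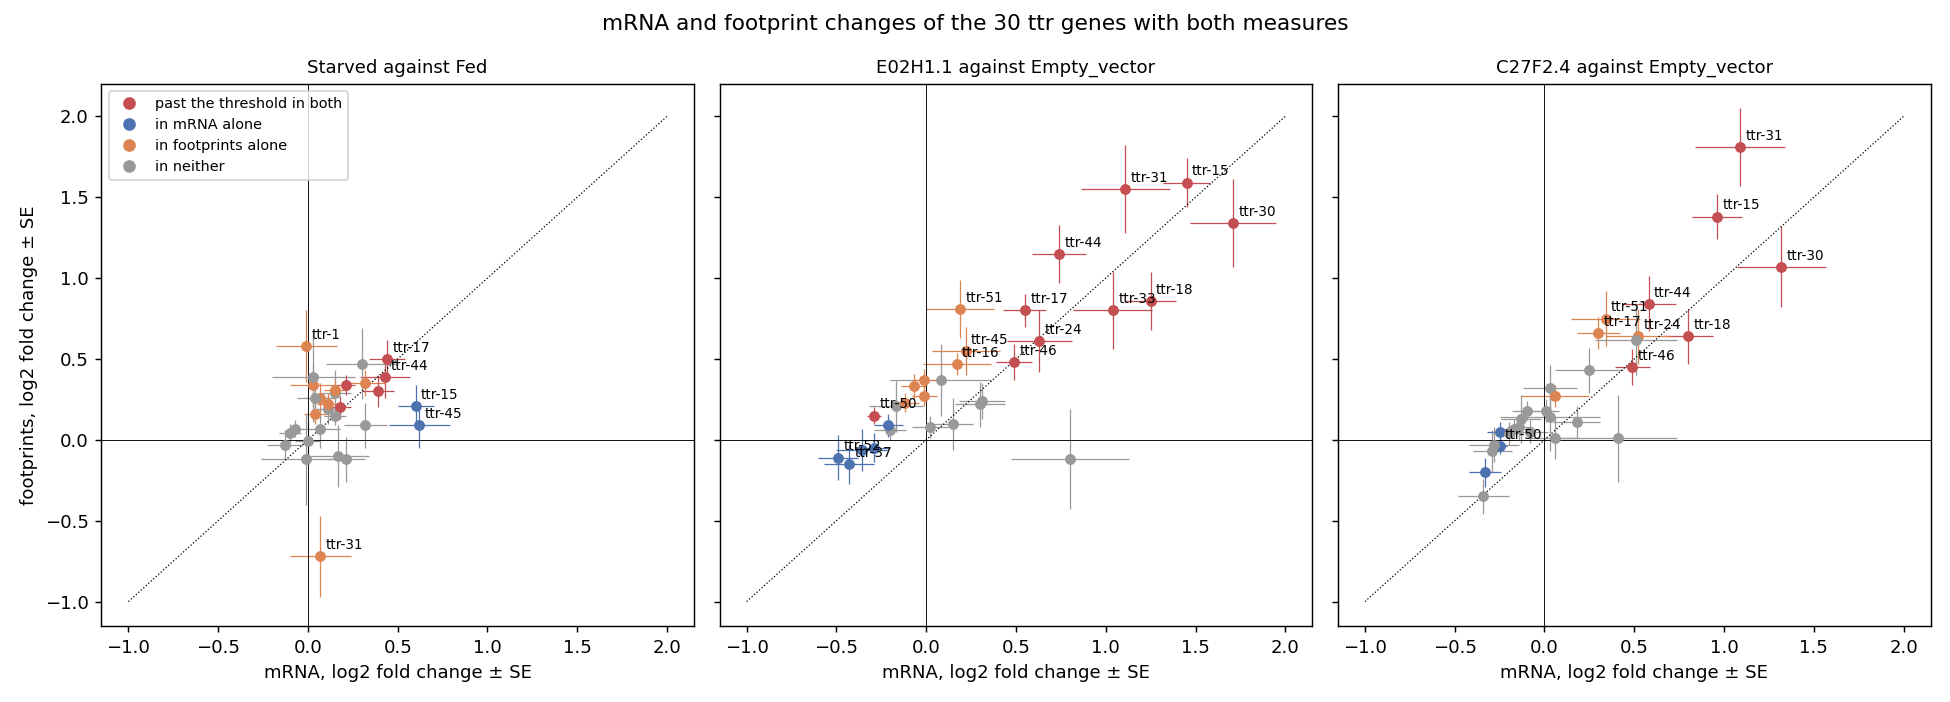
Footprint log2 fold change against mRNA log2 fold change (± SE) of the 30 ttr genes present in both tables, in the 3 comparisons, where the dotted line marks equal change. Under both RNAi treatments ttr-15, ttr-30 and ttr-31 lie at the upper right, and ttr-50 lies left of 0 on the mRNA axis. In Starved worms most points lie within 0.5 of 0 on both axes.

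Relative to mRNA, 5 of 30 members gained footprints under E02H1.1 RNAi and 0 lost them, where 5.59% of all 10714 genes gained, 5.24% lost and 10.8% passed in either direction. The median log2 TE change of the members was 0.28, against 0.03 over all genes. The 5 were ttr-50 (0.44 ± 0.07, edgeR adjusted p = 8.89e-05), ttr-6 (0.40 ± 0.11, 0.021), ttr-48 (0.38 ± 0.10, 0.0112), ttr-35 (0.36 ± 0.10, 0.0169) and ttr-36 (0.30 ± 0.10, 0.0495). At an unadjusted p under 0.05 the count was 10, and DESeq2's Wald test called 5, all higher. The count fell to 1 without E02H1.1 B, when ttr-50 remained, to 3 without Empty_vector A or E02H1.1 D, and to 4 without Empty_vector C. The call of ttr-36 was lost without any of the 8 libraries (edgeR adjusted p = 0.0616 to 0.144) and with DESeq2 size factors (0.0553). That of ttr-6 was lost without Empty_vector A, E02H1.1 B or E02H1.1 D (0.0554, 0.105 and 0.0563), that of ttr-35 without Empty_vector C or E02H1.1 B (0.0532 and 0.081) and that of ttr-48 without E02H1.1 B (0.0681). When the mRNA-seq and the Ribo-seq library that share a name were treated as 1 culture, 8 members passed, ttr-2, ttr-17 and ttr-53 besides these 5.

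Some marker lists of other kinds moved in the same libraries, where 19.9% of all mRNAs tested rose and 19.6% fell. The summed mRNA of 6 body wall muscle genes, all of which rose, was 2258 to 2451 CPM in E02H1.1 libraries and 1502 to 1866 CPM in Empty_vector libraries, and that of 10 early embryonic genes, of which 3 fell and 0 rose, was 197 to 211 CPM in E02H1.1 libraries and 234 to 299 CPM in Empty_vector libraries. The summed mRNA of 7 intestinal genes, of which 6 were measured, was 794 to 899 CPM in E02H1.1 libraries and 595 to 690 CPM in Empty_vector libraries. Of these 6 genes 3 rose, with asp-1, an aspartyl protease gene, at 328 CPM in E02H1.1 worms and 199 CPM in Empty_vector worms, and 1 fell (elt-7, a gene for a GATA factor, -0.24 ± 0.09). The summed mRNA of 5 oocyte genes, of which 3 fell and 0 rose, was 462 to 503 CPM in E02H1.1 libraries and 515 to 570 CPM in Empty_vector libraries. Among neuron and glia genes 4 of 9 mRNAs rose and 1 fell, and among hypodermis genes 1 of 6 rose and 1 fell. Among late embryonic sheath genes 1 of 8 rose and 0 fell. In footprints 4 of 6 muscle and 1 of 6 intestinal genes rose. Of the oocyte genes 3 of 3 fell, and of the early embryonic genes 0 of 7 passed. Among hypodermis genes 3 of 5 rose and 0 fell, and among late embryonic sheath genes 1 of 8 rose and 0 fell. Of neuron and glia genes 0 of 8 passed. Over all genes footprints rose for 10.7% and fell for 9.23%. The part of these markers in the ttr results was not tested, and in whole worms fewer cells of a type and less RNA per cell cannot be told apart.

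C27F2.4 RNAi gave fewer calls, measured against the same Empty_vector libraries. Of 44 members' mRNAs 9 rose and 3 fell, where 8.11% of all genes rose, 5.56% fell and 13.7% passed in either direction, and the median was 0.28, against -0.00 over all genes. Without Empty_vector C the count was 13, and without C27F2.4 A it was also 13, against 12 with all libraries. Of the 27 members under 10 CPM, 7 rose and 0 fell, while 7.68% of all genes at that level rose and 1.36% fell. Of the 17 members at 10 CPM or more, 2 rose and 3 fell, while 8.37% of all genes at that level rose and 8.1% fell. The members' medians at the 2 levels were 0.52 and -0.13, against 0.10 and -0.02 over all genes. The 6 highest were ttr-32 (2.11), ttr-8 (1.97), ttr-26 (1.75), ttr-30 (1.32), ttr-31 (1.09) and ttr-15 (0.96). For ttr-15 the C27F2.4 libraries had 32.5, 28.5, 21.2 and 27.1 CPM, against 14.7, 12.9, 12.5 and 15.5 CPM in the Empty_vector libraries, a log2 fold change of 0.96 ± 0.14 (edgeR adjusted p = 0.000101) with no overlap. ttr-26 had 2.82, 2.55, 1.08 and 2.55 CPM in the C27F2.4 libraries, against 0.733, 0.548, 0.661 and 0.692 CPM in the Empty_vector libraries (1.75 ± 0.31, edgeR adjusted p = 0.000407), again with no overlap. ttr-18 (0.80), ttr-44 (0.58) and ttr-46 (0.49) made up the rest. As above, ttr-8 and ttr-32 were kept by the filter only through the RNAi libraries.

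Of those that fell under C27F2.4 RNAi, ttr-50 had 870, 844, 823 and 924 CPM in the C27F2.4 libraries, against 1022, 1022, 1044 and 1005 CPM in the Empty_vector libraries (-0.25 ± 0.04, edgeR adjusted p = 0.000307). The groups did not overlap. The calls of ttr-20 (-0.33) and ttr-2 (-0.25) were lost without C27F2.4 B or Empty_vector D, at an edgeR adjusted p of 0.0666 and 0.0522 for ttr-20 and of 0.111 and 0.103 for ttr-2. That of ttr-2 was also lost without Empty_vector A (0.0602) and in a fit of the 2 groups alone (0.0623). ttr-52 had 13, 14.1, 15.7 and 14.2 CPM in the C27F2.4 libraries and, as given above, 15.8 to 18.7 CPM in the Empty_vector libraries, and its change of -0.29 ± 0.11 did not pass (edgeR adjusted p = 0.0631). The groups did not overlap, and the change passed in 4 of 14 alternatives: DESeq2's Wald test, the replicate block, and the fits without C27F2.4 C or Empty_vector C (adjusted p down to 0.0346).

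Footprints of 10 members rose and of 0 fell under C27F2.4 RNAi, where 4.96% of all genes rose, 2.11% fell and 7.08% passed in either direction, with a median of 0.16, against -0.00 over all genes. At an unadjusted p under 0.05 the count was 17, and DESeq2's Wald test called 10 higher and 0 lower. Without Empty_vector C the count was 8, of which 7 were higher and 1, ttr-37, lower (-0.42). The same held without C27F2.4 A, again with ttr-37 lower (-0.41), and with the replicate block 14 were higher and 1, ttr-37, lower (-0.34). Of the 10, ttr-30 and ttr-31 passed the filter only with the help of RNAi libraries. ttr-31 rose most, with 5.89, 4.22, 4.15 and 4.51 CPM in the C27F2.4 libraries, against 1.08, 1.64, 1.15 and 1.38 CPM in the Empty_vector libraries (1.81 ± 0.24, edgeR adjusted p = 4.93e-05). ttr-15 followed, with 32.8, 24.9, 29.1 and 26.5 CPM in the C27F2.4 libraries, against 12.8, 11, 10.2 and 8.3 CPM in the Empty_vector libraries (1.38 ± 0.14, edgeR adjusted p = 3.96e-06). All 6 members that rose in mRNA and were in the Ribo-seq table also rose in footprints, which is 6 of 10, and the other 4 were ttr-16, ttr-17, ttr-24 and ttr-51. Calls that did not survive every left-out library were those of ttr-18 (without C27F2.4 A or D or Empty_vector A or C, edgeR adjusted p up to 0.0843), ttr-24 (without C27F2.4 A or B or Empty_vector A or C, up to 0.0919) and ttr-16 (without C27F2.4 A or B or Empty_vector A or C, up to 0.0938). In TE 0 of 30 members passed, where 0.364% of all genes rose, 0.513% fell and 0.877% passed in either direction. At an unadjusted p under 0.05 there were 5, and DESeq2's Wald test called 1, ttr-50 (0.21). Without C27F2.4 A 1 member passed, also ttr-50, and with the replicate block ttr-2 did (0.30). With libraries that share a name treated as 1 culture 4 passed, all higher: ttr-50 (0.22), ttr-35 (0.28), ttr-2 (0.29) and ttr-17 (0.36). Of the marker lists, body wall muscle mRNA summed to 1997 to 2265 CPM in C27F2.4 libraries and 1502 to 1866 CPM in Empty_vector libraries (4 of 6 genes rose), and early embryonic mRNA to 218 to 260 CPM in C27F2.4 libraries and 234 to 299 CPM in Empty_vector libraries (0 of 10 passed). Intestinal mRNA summed to 724 to 899 CPM in C27F2.4 libraries and 595 to 690 CPM in Empty_vector libraries (3 of 6 genes rose, 0 fell), and oocyte mRNA to 472 to 606 CPM in C27F2.4 libraries and 515 to 570 CPM in Empty_vector libraries (0 of 5 passed). Among neuron and glia genes 3 of 9 mRNAs rose and 0 fell. Among hypodermis genes 0 of 6 rose and 1 fell, and among late embryonic sheath genes 0 of 8 passed. Over all genes 8.11% of mRNAs rose and 5.56% fell. In footprints 1 of 6 muscle and 1 of 6 intestinal genes rose. Of the oocyte genes 1 of 3 fell (pup-2, -0.42 ± 0.06), and of the early embryonic genes 0 of 7 passed. Of hypodermis genes 0 of 5 passed, of late embryonic sheath genes 0 of 8, and of neuron and glia genes 0 of 8. The part of these markers in the result was not tested.

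**Figure D3:**
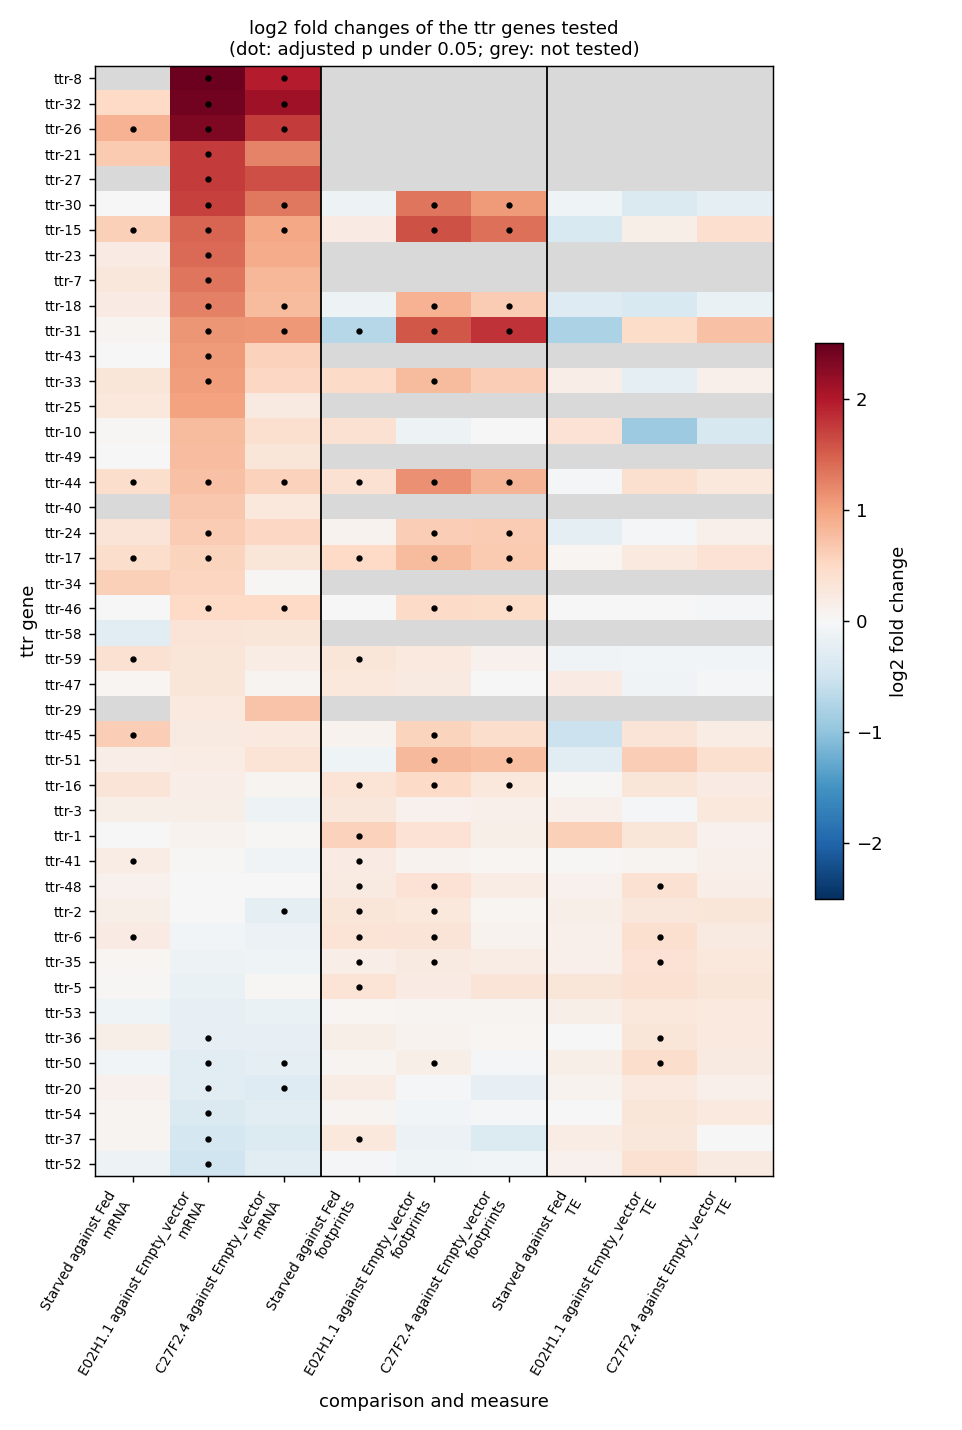
log2 fold changes of the 44 ttr genes tested in the knockdown experiment, ordered by their mRNA change under E02H1.1 RNAi, in the 3 comparisons for mRNA, footprints and TE. Red is higher and blue lower in the first-named group, dots mark an adjusted p under 0.05, and grey cells were not tested. The 6 highest mRNA changes under E02H1.1 RNAi include 5 genes without footprint values.

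Set directly against each other, the knockdowns differed in few members. In mRNA 1 of 44 members passed, where 1.63% of all genes were higher, 1.64% lower and 3.26% passed in either direction: ttr-15 was higher under E02H1.1 RNAi, at 38.1 CPM on average in E02H1.1 worms and 27.3 CPM in C27F2.4 worms (0.49 ± 0.13, edgeR adjusted p = 0.0407). The libraries overlapped, and the call was lost without E02H1.1 A, B or D or C27F2.4 B, C or D (edgeR adjusted p = 0.0805 to 0.122), with scaling by library totals (0.0557) and in a fit of the 2 groups alone (0.0811). Without C27F2.4 A 3 members passed, and without E02H1.1 C 2 did. In footprints 0 of 30 passed, where 0.615% of all genes were higher, 0.633% lower and 1.25% passed in either direction, with 5 at an unadjusted p under 0.05 and 2 by DESeq2's Wald test (ttr-50 and ttr-2), and 4 passed without C27F2.4 A. In TE 0 of 30 passed, where 0.00933% of all genes were higher, 0.0373% lower and 0.0467% passed in either direction, with 2 at an unadjusted p under 0.05 and 0 by DESeq2's Wald test. For ttr-31 the difference between the knockdowns was 0.01 ± 0.23 in mRNA and -0.26 ± 0.21 in footprints.

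In Starved worms the changes were smaller and nearly all upward. In mRNA 8 of 40 members rose and 0 fell, where 11.8% of all 13293 genes rose, 10.2% fell and 21.9% passed in either direction, so the members' share of calls (20.0%) was near that of all genes. The members' median was 0.15, against 0.00 over all genes. At an unadjusted p under 0.05 the count was 14, and DESeq2's Wald test called 8 higher and 0 lower. Without Starved 1 and 5 together, 5 of the 8 remained: ttr-15, ttr-17, ttr-26, ttr-59 and ttr-6. ttr-15 ranged from 18.9 to 27.1 CPM (median 22.2) in the Starved libraries and from 12 to 18.7 CPM (median 15.4) in the Fed libraries. The groups did not overlap, and the log2 fold change was 0.60 ± 0.10 (edgeR adjusted p = 5.78e-05), or 0.48 without Starved 1 and 5. ttr-26 ranged from 1.59 to 3.05 CPM (median 2.45) in the Starved libraries and from 0.77 to 1.89 CPM (median 1.45) in the Fed libraries, which overlapped (0.86 ± 0.23, edgeR adjusted p = 0.00622). ttr-6 ranged from 52.8 to 59.2 CPM (median 56.8) in the Starved libraries and from 42.9 to 52.4 CPM (median 51.5) in the Fed libraries (0.21 ± 0.05, edgeR adjusted p = 0.00368). ttr-17 (0.44 ± 0.10) and ttr-59 (0.39 ± 0.09) also rose. The call of ttr-45 (0.62) was lost without Starved 1 and 5 together (edgeR adjusted p = 0.0901). The call of ttr-44 (0.43) was lost without any of Starved 1, Starved 5, Fed 3, Fed 4 or Fed 5 (0.055 to 0.106), and that of ttr-41 (0.18) without any of Starved 1, Starved 5, Fed 2, Fed 3 or Fed 4 (0.0513 to 0.108).

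Footprints of 12 members rose in Starved worms and those of 1 fell, where 13.9% of all 10589 genes rose, 14.7% fell and 28.6% passed in either direction. The members' median was 0.20, against 0.01 over all genes. At an unadjusted p under 0.05 the count was 18, and DESeq2's Wald test called 9 higher and 0 lower. The count of 13 dropped to 7 without Starved 1, to 7 without Starved 5, to 8 without Starved 6 or without Fed 1, and to 4 without Starved 1 and 5 together. Those 4 were ttr-2, ttr-6, ttr-16 and ttr-17. ttr-6 ranged from 114 to 138 CPM in the Starved libraries (128 ± 7.84, mean and SD, n = 6) and from 89.3 to 111 CPM in the Fed libraries (101 ± 8.58, n = 6) (0.34 ± 0.06, edgeR adjusted p = 7.35e-06). ttr-2 ranged from 79.4 to 90.8 CPM (median 90.1) in the Starved libraries and from 65.1 to 79.4 CPM (median 70.7) in the Fed libraries (0.31 ± 0.06, edgeR adjusted p = 5.88e-05). Neither gene's groups overlapped, although the lowest Starved and highest Fed library of ttr-2 were equal to 3 digits. ttr-17 ranged from 82.8 to 129 CPM (median 94.4) in the Starved libraries and from 64 to 79.9 CPM (median 74.3) in the Fed libraries, also with no overlap (0.50 ± 0.12, edgeR adjusted p = 0.00757). ttr-16 rose by 0.35 ± 0.08. The other 8 that rose had calls that were lost in at least 1 alternative: ttr-1 (0.58), ttr-44 (0.39), ttr-5 (0.34), ttr-59 (0.30), ttr-37 (0.26), ttr-48 (0.22), ttr-41 (0.20) and ttr-35 (0.16). Of these, ttr-1 reached the filter's level of 1.76 CPM in 5 of 6 Fed libraries, and it was tested only with the help of Starved libraries.

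The member that fell in Starved footprints was ttr-31, which rose under both RNAi treatments. It ranged from 1.22 to 3.07 CPM (median 1.69) in the Starved libraries and from 1.85 to 4.26 CPM (median 3.21) in the Fed libraries (-0.72 ± 0.25, edgeR adjusted p = 0.0293). The groups overlapped, the gene had 55 footprint counts over all 6 Starved libraries and 111 over all 6 Fed libraries, and the call was lost without any of Starved 4, Starved 5, Starved 6, Fed 2 or Fed 3 (0.051 to 0.105). It was also lost with the replicate block (0.0621) and did not pass in DESeq2's Wald test. Its mRNA changed by 0.07 ± 0.17. ttr-15, whose mRNA rose, had footprints of 15.8 ± 3.58 CPM in Starved worms and 13.7 ± 2.45 CPM in Fed worms (SD, n = 6 each), a change of 0.21 ± 0.13 that did not pass (edgeR adjusted p = 0.227). Its TE differed by -0.39 ± 0.18 and did not pass either (edgeR adjusted p = 0.202), although with libraries that share a name treated as 1 culture it did. ttr-52 did not pass in mRNA (-0.13 ± 0.10) or in footprints (-0.03 ± 0.09), nor did ttr-33 (0.30 ± 0.20 and 0.47 ± 0.22). In TE 0 of 30 members passed, where 2.54% of all genes rose, 3.75% fell and 6.29% passed in either direction, with 5 at an unadjusted p under 0.05 and 0 by DESeq2's Wald test.

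In the Starved libraries body wall muscle mRNA summed to 2134 to 3069 CPM, against 2025 to 2193 CPM in the Fed libraries, and all 6 genes rose. Early embryonic mRNA summed to 183 to 240 CPM in the Starved libraries and 262 to 309 CPM in the Fed libraries, and 5 of 10 genes fell. Intestinal mRNA summed to 896 to 1197 CPM in the Starved libraries and 842 to 928 CPM in the Fed libraries (2 of 6 genes rose, 0 fell), and oocyte mRNA to 641 to 734 CPM in the Starved libraries and 643 to 758 CPM in the Fed libraries (0 of 5 passed). Among hypodermis genes 1 of 6 mRNAs rose and 2 fell. Of neuron and glia genes 0 of 10 passed, and of late embryonic sheath genes 0 of 8. Over all genes 11.8% of mRNAs rose and 10.2% fell. In footprints 1 of 6 muscle genes rose and 1 fell (unc-54, -0.24 ± 0.05). Of early embryonic genes 4 of 7 fell, of intestinal genes 1 of 6 rose, and of oocyte genes 1 of 3 rose and 1 fell. Among late embryonic sheath genes 3 of 8 rose and 0 fell, and among hypodermis genes 1 of 5 rose and 2 fell. Of neuron and glia genes 0 of 8 passed. Over all genes footprints rose for 13.9% and fell for 14.7%. The part of these markers in the ttr results was not tested.

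**Figure D4:**
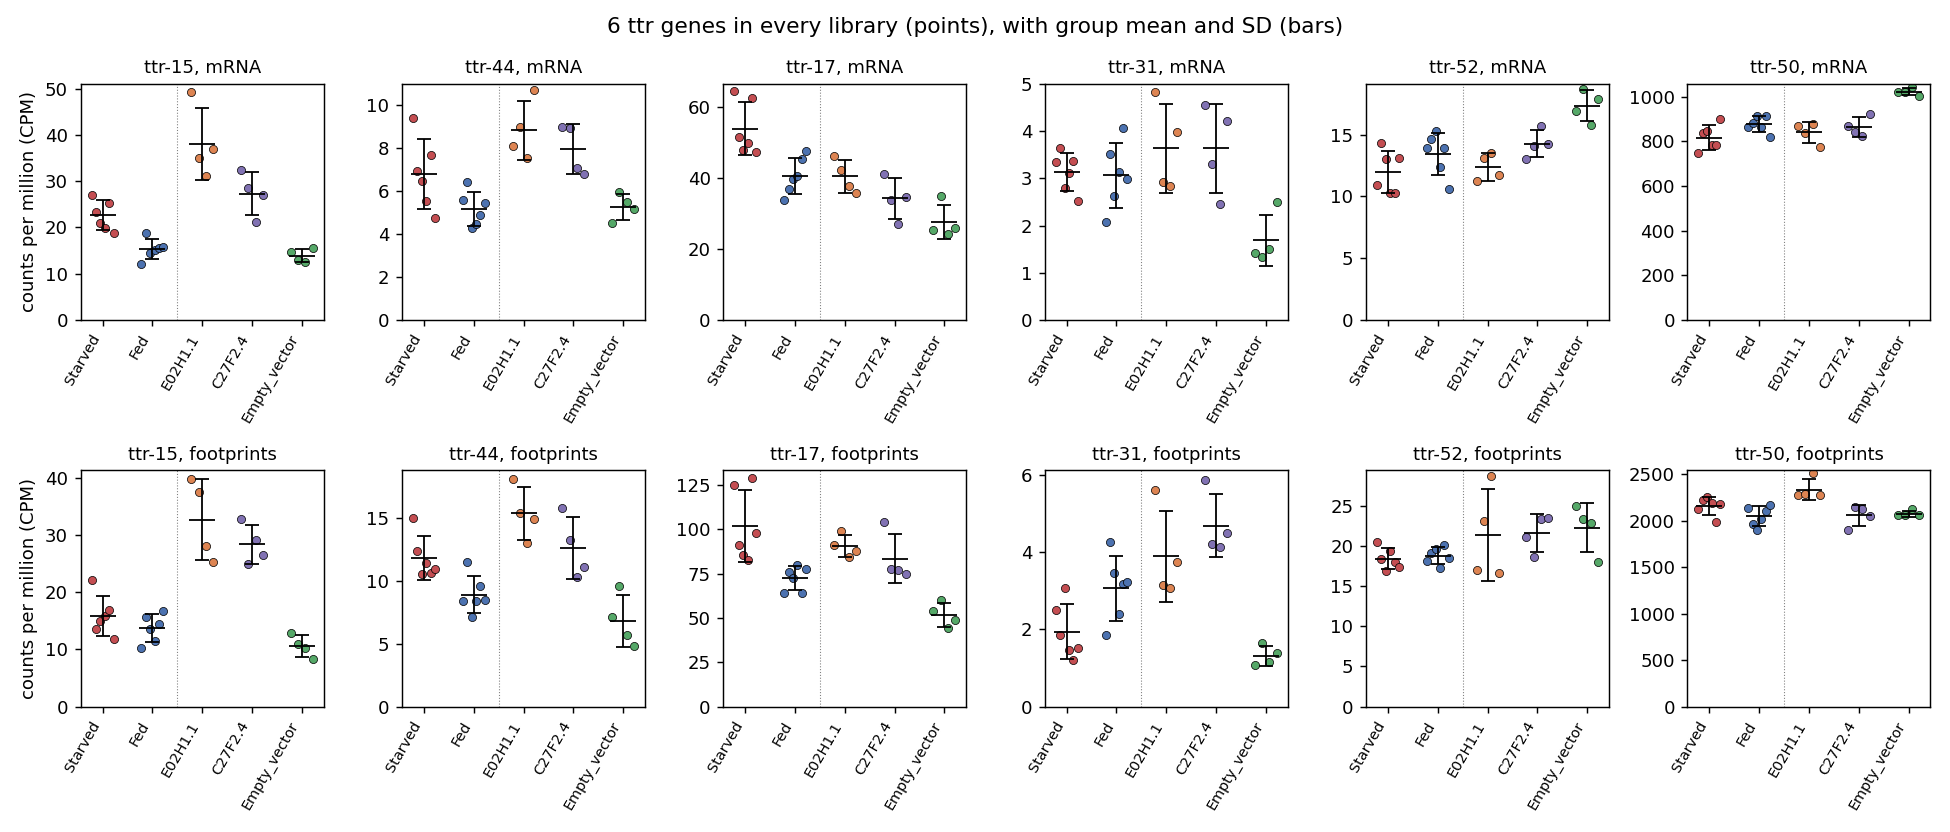
CPM of 6 ttr genes in every library, mRNA above and footprints below, with group mean and SD. The dotted line divides the Starved and Fed experiment from the RNAi experiment. ttr-15 mRNA in the 4 E02H1.1 libraries (31.2 to 49.3 CPM) lies above that in the 4 Empty_vector libraries (12.5 to 15.5 CPM), while ttr-50 mRNA in the E02H1.1 libraries (776 to 877 CPM) lies below that in the Empty_vector libraries (1005 to 1044 CPM).

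Counted over the 9 comparisons with Fed or Empty_vector (3 for mRNA, 3 for footprints and 3 for TE), ttr-44 passed most often, in 6, each time higher. Its calls in Starved worms were lost in 6 of 18 alternatives for mRNA and in 3 of 18 for footprints. Its mRNA was 8.11, 8.99, 7.56 and 10.7 CPM in the E02H1.1 libraries and 8.99, 8.96, 7.07 and 6.82 CPM in the C27F2.4 libraries, against 4.5, 5.94, 5.48 and 5.17 CPM in the Empty_vector libraries. Both knockdowns' libraries lay above all Empty_vector libraries. The span of ttr-44 overlaps that of R11G10.3. ttr-15 and ttr-17 passed in 5 comparisons, all higher, and ttr-6, ttr-18, ttr-30 and ttr-46 in 4, all higher. ttr-31 also passed in 5, higher in 4 and lower in 1. ttr-50 was higher in 2 comparisons and lower in 2. Members absent from the Ribo-seq table could pass in at most 3 comparisons, and ttr-26 was higher in all 3 of its tests. The 2 RNAi comparisons share their Empty_vector libraries, and a gene's mRNA, footprint and TE calls share libraries, so these counts are not of independent tests. The share of all genes that passed as often is not given here, so the counts do not set the members apart from other genes.

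Across the 24 mRNA-seq libraries, with each experiment centred on its own mean, the log2 CPM of ttr-26 (r = 0.91), ttr-18 (0.84) and ttr-17 (0.82) were the most like that of ttr-15 among 35 members with enough reads. The libraries fall into 5 groups, so the coefficients also carry the differences between groups, and they are given as a description.

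Most ttr genes had more footprints per mRNA than the median gene. Of 9581 genes with at least 10 counts in every library of both assays 26 were members, and 22 of the 26 lay above the median of all genes. The median ratio of footprint CPM to mRNA CPM was 1.72 for the members and 0.996 for all genes. The highest was ttr-16, with a ratio of 8.03, above 99.6% of genes. Its span overlaps that of lin-3, which encodes an EGF-like ligand, and reads of the 2 genes cannot be told apart here. ttr-50 had a ratio of 2.43, and ttr-3 (0.65), ttr-15 (0.83), ttr-46 (0.945) and ttr-20 (0.958) were the 4 below the median. Fragment lengths differ between the assays, and the sources used here do not say whether the same regions were counted. These ratios therefore describe reads rather than rates.

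**Figure D5:**
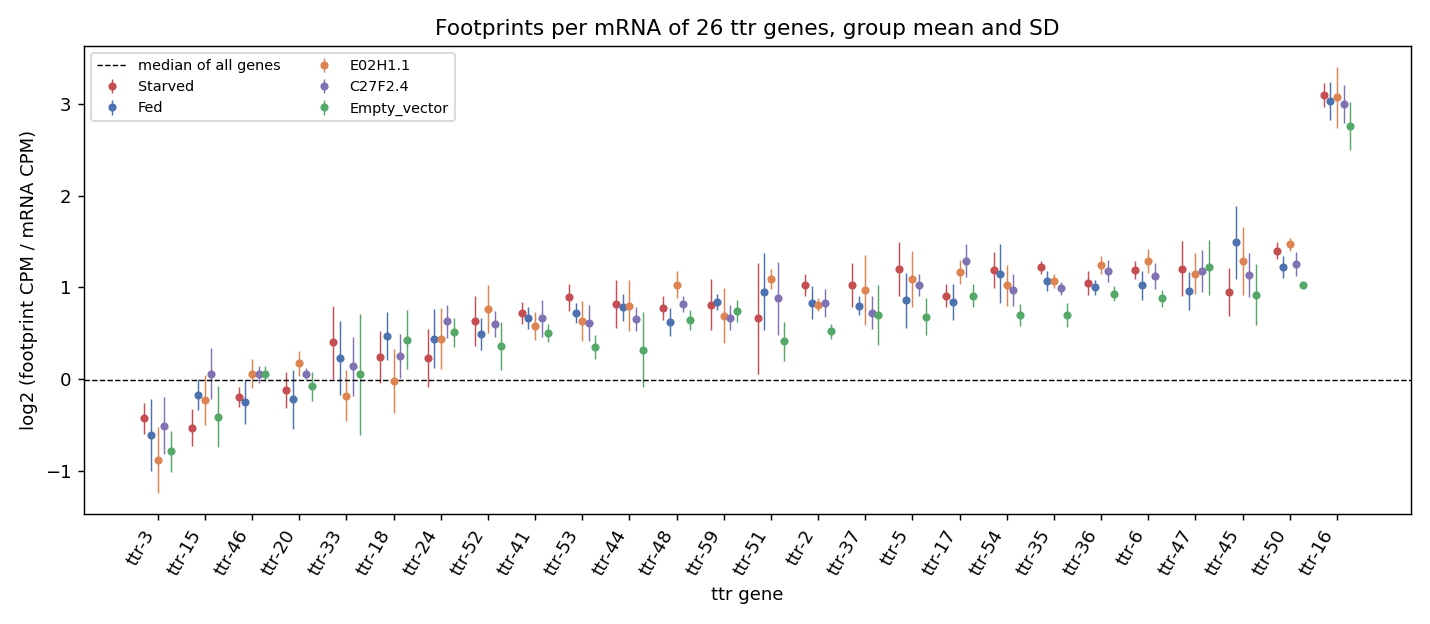
log2 of footprint CPM over mRNA CPM for the 26 ttr genes with at least 10 counts in every library, as mean and SD of each group (6 Starved, 6 Fed and 4 libraries in each RNAi group). The dashed line is the median of all 9581 genes. Most points lie above it, with ttr-16 highest and ttr-3 lowest.

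Summed over all 58 members, mRNA was 1456 ± 71.3 CPM in E02H1.1 worms and 1438 ± 92.3 CPM in C27F2.4 worms, against 1580 ± 4.98 CPM in Empty_vector worms (SD, n = 4 each). Summed footprints of the 30 members were 3564 ± 118 CPM in E02H1.1 worms and 3180 ± 57.5 CPM in C27F2.4 worms, against 3030 ± 31.9 CPM in Empty_vector worms. In the other experiment they ranged from 3283 to 3485 CPM in Starved libraries (mean 3393) and from 2961 to 3284 CPM in Fed libraries (mean 3083). Without ttr-50, mRNA of the other 57 members summed to 616 ± 32.6 CPM in E02H1.1 worms and 573 ± 65 CPM in C27F2.4 worms, against 557 ± 17.9 CPM in Empty_vector worms. The lower mRNA sum under RNAi thus sat in ttr-50. These sums are given as a description, with no test.

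Genes that act with ttr-52 or on secreted proteins were counted beside the members. Of 23 tested genes for phosphatidylserine exposure and engulfment, 1 mRNA rose and 4 fell under E02H1.1 RNAi, where 19.9% of all genes rose and 19.6% fell. Examples are dyn-1 (0.33 ± 0.05), which encodes the dynamin used in engulfment, and ced-8 (-0.22 ± 0.08), which promotes phosphatidylserine exposure. Under C27F2.4 RNAi 1 rose (dyn-1, 0.18 ± 0.05) and 0 fell, where 8.11% of all genes rose and 5.56% fell. In Starved worms 2 rose, among them the calreticulin gene crt-1 (0.18 ± 0.04), and 6 fell, among them the integrin gene ina-1 (-0.18 ± 0.04), where 11.8% of all genes rose and 10.2% fell. Their footprints gave 0 higher and 2 lower calls under E02H1.1 RNAi, 0 and 0 under C27F2.4 RNAi, and 4 higher and 3 lower in Starved worms. Over all genes footprints were higher and lower for 10.7% and 9.23% under E02H1.1 RNAi, 4.96% and 2.11% under C27F2.4 RNAi, and 13.9% and 14.7% in Starved worms.

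Of 20 genes for entry of secreted proteins into the endoplasmic reticulum and for disulfide formation, 15 mRNAs fell and 0 rose under E02H1.1 RNAi, with a median of -0.17, where 19.6% of all genes fell. The signal peptidase subunit spcs-1 (-0.38 ± 0.05) and the translocon subunit sec-61.G (-0.37 ± 0.04) fell most. Under C27F2.4 RNAi 8 fell and 0 rose, with a median of -0.11, where 5.56% of all genes fell, and in Starved worms 2 rose and 0 fell. Their footprints gave 0 higher and 7 lower calls under E02H1.1 RNAi, 0 higher and 3 lower under C27F2.4 RNAi, and 1 higher and 1 lower in Starved worms, beside the same shares of all genes (9.23%, 2.11% and 14.7% lower). Of the urate-pathway genes, to which the enzymes related to transthyretin belong, 2 were tested, and xdh-1, the xanthine dehydrogenase gene, passed in 1 comparison, with lower footprints in Starved worms (-0.23 ± 0.06).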

How the data were processed

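Counts per gene were deposited by the authors as whole numbers with no scaling, 1 column per library, and every column was used. Per the submitters' processing notes, cutadapt removed adapters. The aligner, counting tool, strand setting and build were not given in the sources used here. In the deposited files, the Ribo-seq table holds genes with at least 10 counts in at least 13 of 24 columns. The deposited TE table was not used. RNAi columns have a letter and their labels a number, so these libraries go by letter.

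Each assay was fitted over all genes with edgeR 4.0.16 in R 4.3.3 (filterByExpr, TMM, robust quasi-likelihood, two-sided tests, Benjamini-Hochberg adjustment over all genes tested), Starved and Fed in 1 fit and the 3 RNAi groups in another. A TE change was the assay-by-group interaction in 1 fit of all libraries of an experiment, TMM factors being computed per assay. With no spike-in named, changes are relative to the other genes. The SE is the size of the log2 fold change over the square root of F. CPM are counts over the library total, and no interval is given for counting error beyond the SD and SE.

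On simulated counts the fits found 72% to 97% of the 1.5-fold and 100% of the 4-fold changes, with 2.27% to 6.19% false calls, over the 6 fits simulated (Starved against Fed and E02H1.1 against Empty_vector in mRNA, footprints and TE). In these counts all genes shared the same spread and no library stood apart. Few genes were changed, all drawn from those in the Ribo-seq table. The data differ on these points, so the rates check the fits and do not carry over to the ttr calls.

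Members and lists were chosen with earlier results of these data known. Named members are ttr-15, ttr-52, ttr-11 and ttr-33, the 6 highest and lowest calls per comparison and the 8 with most reads in each assay. Those called in 4 or more comparisons and those with a TE call are named too. Of each other list, up to 2 calls each way are named. Any other member is named to complete a count or a run of neighbours. Alternatives were DESeq2 1.42.0 (size factors, Wald test), no filter, library totals, blocks by replicate or by shared library name, the 2 groups alone and each library left out. Leaving out Starved 1 and 5 together was chosen after seeing the data. Gene spans and neighbours come from RefSeq's WBcel235 annotation.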

Additional observations from a re-analysis of the deposited data

Results flagged for a closer look

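Among 265 groups of 4 to 6 libraries (member, assay and condition), 21 had a library far from the others by Dixon's test, which chance gives in about 1 of 20 groups. In mRNA they were ttr-17 in Empty_vector B (34.8 CPM, others 24.3 to 26), ttr-26 in C27F2.4 C (1.08, others 2.55 to 2.82), ttr-30 in Empty_vector C (1.27, others 0.868 to 0.923) and ttr-31 in Empty_vector D (2.49, others 1.33 to 1.51). They also included ttr-36 in Starved 1 (40.7, others 31.6 to 34.3), ttr-45 in Starved 1 (5.82, others 3.31 to 4.07) and ttr-53 in Fed 1 (35.5, others 45.1 to 49.9).

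In footprints of the first experiment they were ttr-5 in Starved 1 (19.2 CPM, others 9.99 to 13.3), ttr-46 in Starved 1 (38, others 27.5 to 31.2), ttr-35 in Starved 5 (88.2, others 74.2 to 78.8) and ttr-53 in Starved 5 (63, others 76.4 to 82). In the Fed libraries they were ttr-18 in Fed 4 (5.52, others 8.67 to 9.81) and ttr-45 in Fed 1 (5.99, others 7.39 to 7.94). Starved 1 and Starved 5 are the libraries that also stood apart over all genes, and they hold 6 of these values.

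In footprints of the RNAi experiment they were ttr-50 in E02H1.1 C (2509 CPM, others 2270 to 2282), ttr-50 in Empty_vector C (2123, others 2055 to 2062) and ttr-45 in E02H1.1 B (14.1, others 12 to 12.1). For ttr-45 Empty_vector C stood apart too (6.01, others 9.13 to 9.63). The others were ttr-17 in C27F2.4 A (104, others 74.9 to 77.4), ttr-33 in C27F2.4 A (5.3, others 3.04 to 3.41), ttr-54 in C27F2.4 D (13.8, others 12.4 to 12.6) and ttr-41 in Empty_vector A (66.6, others 55.2 to 57.1).

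The mRNA change of ttr-15 differed between the knockdowns, by 0.49 on the log2 scale (E02H1.1 minus C27F2.4), by the edgeR test of that difference. The libraries of the 2 knockdowns overlapped, and the call was lost in 8 of 14 alternatives (edgeR adjusted p up to 0.122).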

How the results depend on the processing

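Calls held under every alternative run for 5 of 8 mRNAs and 4 of 13 footprints in Starved worms, for 17 of 23 mRNAs, 12 of 17 footprints and 1 of 5 TE values under E02H1.1 RNAi, and for 10 of 12 mRNAs and 7 of 10 footprints under C27F2.4 RNAi. Of 1627 alternative values of single members, 1460 kept their direction and side of the threshold, 155 no longer passed, 7 newly passed and 5 changed sign, none of them a called value. The 5 were TE of ttr-52 in Starved worms without Starved 1 and 5 (-0.0025), of ttr-15 under E02H1.1 RNAi without Empty_vector D (-0.0036, range over left-out libraries to 0.23) and of ttr-33 under C27F2.4 RNAi without C27F2.4 A, Empty_vector B or Empty_vector D (-0.04, -0.08 and -0.05, to 0.31). The cause was not tested.

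With 1 library left out, members called ranged from 6 to 10 (mRNA), 7 to 13 (footprints) and 0 to 0 (TE) in Starved worms, from 20 to 23, 12 to 16 and 1 to 4 under E02H1.1 RNAi, from 10 to 16, 7 to 13 and 0 to 1 under C27F2.4 RNAi, and from 0 to 3, 0 to 4 and 0 to 0 between the knockdowns. Without Starved 1 and 5 together, 5 mRNAs and 4 footprints passed, with fewer samples in the fit. Between the knockdowns, mRNA calls numbered 3 by DESeq2's Wald test, 2 with no filter, 0 with library totals and 2 in the fit of 2 groups, and footprint calls 2 by DESeq2's Wald test and 1 in the fit of 2 groups. C27F2.4 TE had 1 call by DESeq2's Wald test. In another alternative, mRNA-seq and Ribo-seq libraries that share a name were assumed to be 1 culture. TE calls then numbered 1 in Starved worms, 8 under E02H1.1 RNAi, 4 under C27F2.4 RNAi and 1 between the knockdowns.

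By the criterion used, a correlation of deviations over 0.1 in every pair, replicate numbers did not pair the libraries. Deviations of same-numbered Starved and Fed libraries correlated at -0.06 to 0.09 in mRNA and -0.23 to -0.02 in footprints, and those of same-lettered RNAi libraries at -0.18 to 0.46, with 1 or 2 of 4 pairs over 0.1 and 1 to 3 of 4 libraries closest to their own letter. With the replicate block, Starved calls were 9 (mRNA), 9 (footprints) and 0 (TE), E02H1.1 calls 25, 17 and 6, C27F2.4 calls 15, 15 and 1, and calls between the knockdowns 3, 4 and 0. Depth limits the low members most: at 55 footprint counts in 6 libraries, ttr-31 rests on few reads.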
